A study of Mus musculus with 34 samples.

Results

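The Hox cluster genes were examined in mouse embryonic stem (ES) cells that lacked MTA proteins, the scaffold subunits of the Nucleosome Remodelling and Deacetylation (NuRD) complex. Members were the 39 protein-coding genes of the 4 mouse Hox clusters, taken by symbol as Hoxa, Hoxb, Hoxc or Hoxd followed by a number only, out of 48709 genes in the count tables of the Control and Mta123KO libraries and 22018 genes in those of the single mutants. All 39 were present in both kinds of table. On GRCm38 (GENCODE vM21) the HoxA cluster held 11 members on chromosome 6 between 52155590 and 52260880, the HoxB cluster 10 members on chromosome 11 between 96194316 and 96368256, the HoxC cluster 9 members on chromosome 15 between 102921103 and 103036852, and the HoxD cluster 9 members on chromosome 2 between 74668310 and 74765142.

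Transcripts were counted by RNA sequencing in 34 libraries from cells of strain 129/Ola, grown on gelatin with 2 kinase inhibitors and LIF (2i/LIF). The Control and Mta123KO groups held 16 libraries, 4 for each genotype labelled 2iL (2i+LIF) and 4 labelled 48h (48 hours in N2B27 medium without inhibitors and LIF, a culture that directs cells towards neuroectoderm). Replicate numbers of the form 1_2 were read as line 1, library 2, so that each group held 2 lines with 2 libraries each. Mta123KO cells carried deleted alleles of Mta1, Mta2 and Mta3: Mta2 was targeted on both alleles, one of them with a puromycin cassette, in Mta1-deleted cells with floxed Mta3, and Cre was then applied. Control cells were derived separately, carried Mta1 +/∆ and Mta3 flox/flox, and were not the direct parent of the knockout. A further 18 libraries, 3 for each of 6 groups and all labelled 2i+LIF, held Mta1_del/del and Mta3_del/del cells, made with Cre, beside their Mta1_flox/flox and Mta3_flox/flox parents, and Mta2_KO cells, from 1 line, beside Mta2_WT cells. The study names the libraries of both culture labels biological replicates. The labels do not say whether libraries of a line, or of a single-mutant group, came from separate cultures, and p-values measure the spread between these libraries.

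Library totals ranged from 37855790 to 57602285 counts in the Control and Mta123KO libraries and from 13105820 to 40613585 counts in the single mutants. Levels are given as CPM, read counts scaled to the library total, and levels were not set side by side between these 2 sets of libraries. The file names of the Control and Mta123KO libraries gave the opposite culture to the labels in every case, and the labels were followed here. Genes of naive ES cells were higher in the libraries labelled 48h: mean Nanog was 67.5 CPM in Control labelled 2iL and 933 CPM in Control labelled 48h, mean Esrrb 62.4 and 668 CPM, and mean Klf4 4.67 and 137 CPM. Every direction between cultures below therefore holds for the labels and turns round if the file names are right; the comparisons of Mta123KO with Control within a culture keep their direction, but the name of the culture would change. Mta2 counts in Mta123KO were 5.48% of Control in 2iL and 4.31% in 48h, Mta3 counts 29.1% and 36.8%, and Mta1 counts 58.5% and 62.5%, from exons that the deletions leave in place among others. In the single mutants the targeted gene stood at 51.1% (Mta1), 4.43% (Mta2) and 16.7% (Mta3) of the parent.

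Hox genes encode homeodomain transcription factors that give cells their position along the head-to-tail axis. Within a cluster, genes with low paralogue numbers lie at the 3′ end and are used early and in the anterior embryo, and genes with high numbers lie at the 5′ end and are used later and more posteriorly. In ES cells Hox clusters are held nearly silent under Polycomb marks, and retinoic acid, Wnt signals and Cdx factors are known to open them during differentiation. NuRD joins a nucleosome remodeller to histone deacetylases, and MTA proteins hold the deacetylase part together.

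Hox transcripts were scarce in these cells. In Control labelled 2iL the median member stood at 0.165 CPM, 17 of 39 members lay under 0.1 CPM on average, 10 reached 1 CPM and 2 (Hoxc11 and Hoxc12) had no count. In Control labelled 48h the median was 0.321 CPM, 8 members reached 1 CPM and 1 (Hoxb5) had no count. Among the highest mean levels per kilobase of exon were those of Hoxa5, Hoxb1, Hoxa7 and Hoxa2 in Control labelled 2iL (1.71, 0.848, 0.629 and 0.619 CPM per kb), and those of Hoxc13, Hoxb9, Hoxc12 and Hoxb13 in Control labelled 48h (2.42, 2.16, 2.05 and 1.2 CPM per kb). These genes differed between the labels, with low and middle paralogue numbers in 2iL and high numbers in 48h. In the Mta1_flox group, labelled 2i+LIF, Hoxc13, Hoxb9, Hoxc12 and Hoxc4 were among the highest per kilobase.

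Summed over the cluster, HoxC stood at 0.778 ± 0.38 CPM in Control labelled 2iL (SD, n = 4), 2.07 ± 0.985 CPM in Mta123KO labelled 2iL, 11.8 ± 1.12 CPM in Control labelled 48h and 10.4 ± 0.833 CPM in Mta123KO labelled 48h. HoxC sums did not overlap between the culture labels in either genotype. As group means, HoxB sums lay between 7.62 and 12 CPM and HoxD sums between 1.38 and 3.28 CPM.

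**Figure D1:**
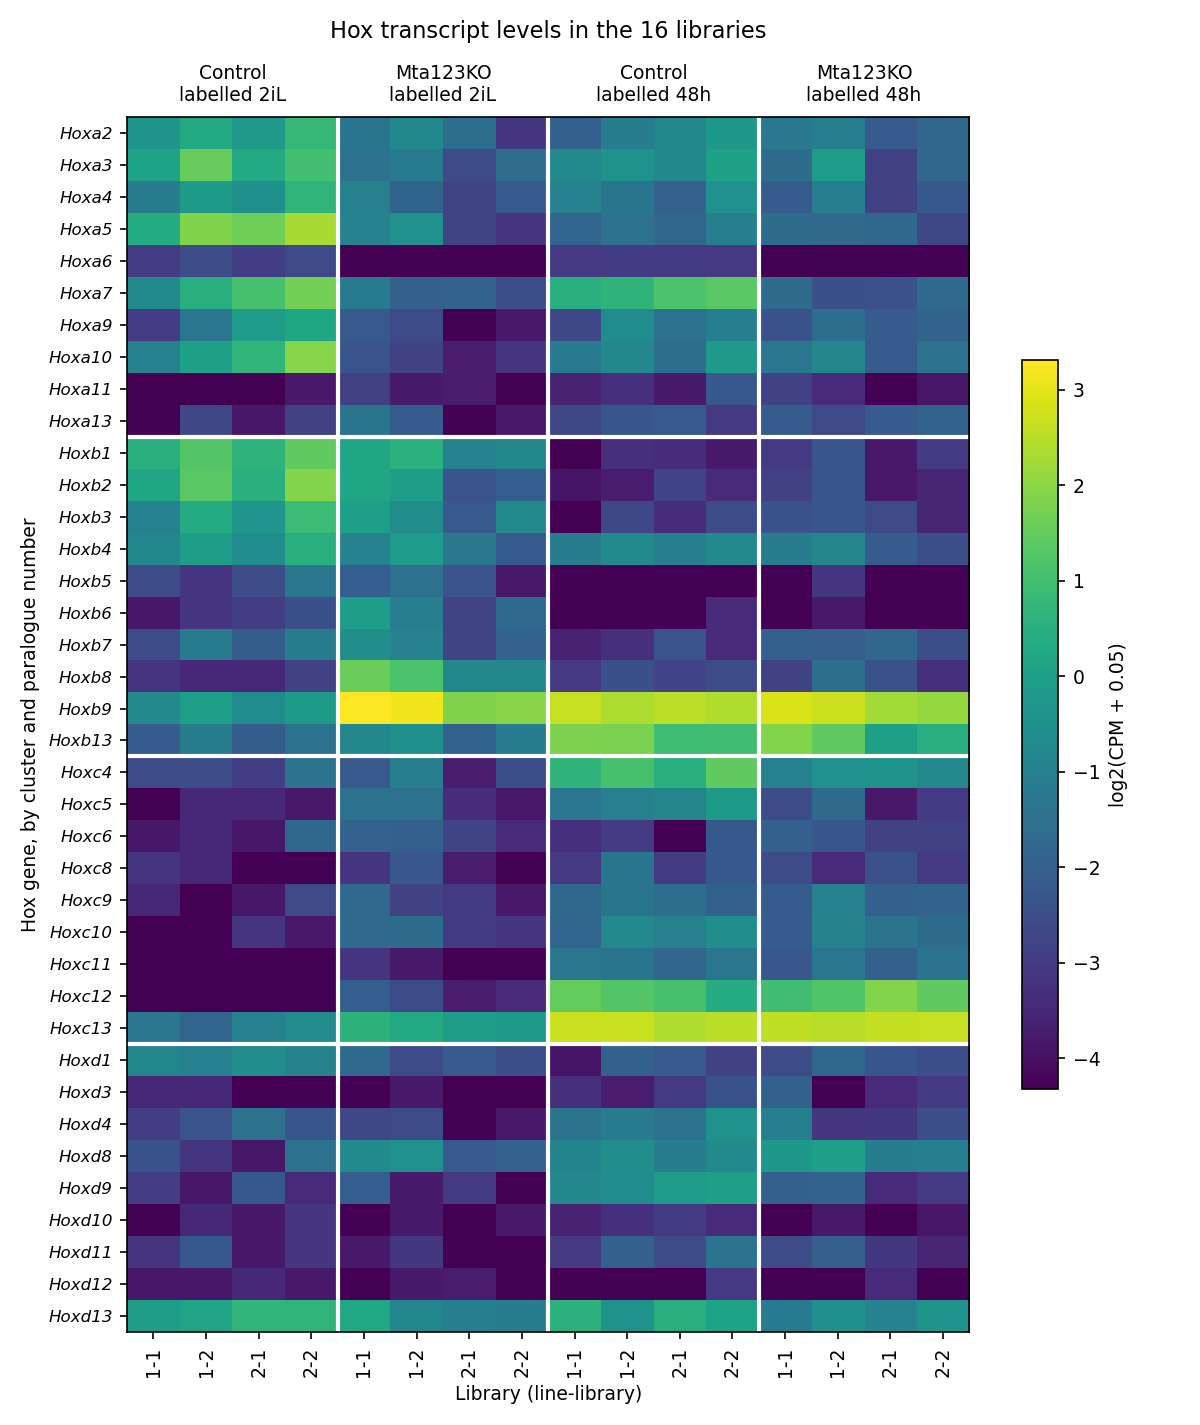
Level of 38 Hox genes (rows, by cluster and paralogue number) in each Control and Mta123KO library (columns, by line and library), as log2(CPM + 0.05). Hoxb8 stands out in Mta123KO labelled 2iL only, and of the HoxC rows Hoxc12 and Hoxc13 are bright in all 8 libraries labelled 48h.

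The first comparison asked how loss of the MTA proteins changed Hox transcripts in the libraries labelled 2iL. A member was called where its adjusted p was under 0.05 and its level differed by more than 1 on the log2 scale (edgeR quasi-likelihood test, Benjamini-Hochberg over all genes tested). Of the 39 members 19 had enough counts to be tested, 3 were called higher in Mta123KO, beside 13.2% of 21651 genes tested, and 9 lower, beside 7.43%. The higher genes were Hoxb8 and Hoxb9, neighbours in HoxB, and Hoxc13, the last gene of HoxC. The lower genes were 6 of the 11 HoxA members (Hoxa2, Hoxa3, Hoxa4, Hoxa5, Hoxa7 and Hoxa10), Hoxb1 and Hoxb2 at the anterior end of HoxB, and Hoxd1 at that of HoxD. The median log2 fold change was -1.0 over the members tested and 0.01 over all genes tested.

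Hoxb8, a trunk-patterning gene also known from blood progenitors, showed the highest fold. Its levels in Control were 0.0599, 0.0415, 0.0414 and 0.0887 CPM, and in Mta123KO 2.93 and 2.15 CPM in line 1 and 0.534 and 0.517 CPM in line 2. Every Mta123KO library thus exceeded every Control library, and line 1 exceeded line 2. The log2 fold change was 4.69 ± 0.75 (SE) with an edgeR adjusted p of 0.000823, from 279 counts in Mta123KO and 11 in Control. Neighbouring Hoxb9, which patterns the rib cage, had 0.559, 0.935, 0.6 and 0.842 CPM in Control and 9.87, 8.88, 3.57 and 3.81 CPM in Mta123KO. The groups did not overlap and line 1 again lay above line 2, with a log2 fold change of 3.17 ± 0.40 (edgeR adjusted p = 0.00022). Hoxc13, a gene of tail vertebrae and hair, had 0.36, 0.229, 0.476 and 0.598 CPM in Control and 1.49, 1.22, 0.922 and 0.839 CPM in Mta123KO. Its groups stood apart by less, at a log2 fold change of 1.44 ± 0.32 (edgeR adjusted p = 0.00479).

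The window of 250 bases before the RefSeq start of Hoxb8 is shown because this gene had the highest fold in the knockout, with those of Hoxa5 and Hoxb1 as genes that were lower there and that also differed between the culture labels (GRCm38.p6; chr11:96281655-96281904, plus strand, for Hoxb8, chr6:52204588-52204837, minus strand, for Hoxa5, and chr11:96365508-96365757, plus strand, for Hoxb1). Capitals mark matches, on either strand, to any of 6 motifs that were searched. These were the TATA box in the form TATAAA, which many promoters with a fixed start carry, and the CCAAT box, named for its letters and bound by NF-Y. Sites of Hox proteins were searched for as the joint Hox-Pbx form TGATNNAT and, for the homeodomain alone, as the core TAATTA found in many of its targets. The E box of basic helix-loop-helix factors was searched for as CACGTG, and the site that Cdx proteins bind as TTTATG. No matches overlapped in these windows.
Hoxb8: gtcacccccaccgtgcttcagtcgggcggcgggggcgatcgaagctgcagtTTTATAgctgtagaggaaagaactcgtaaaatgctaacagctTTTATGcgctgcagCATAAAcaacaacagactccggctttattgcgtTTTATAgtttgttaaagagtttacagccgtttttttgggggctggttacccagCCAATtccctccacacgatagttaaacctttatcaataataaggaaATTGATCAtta
Hoxa5: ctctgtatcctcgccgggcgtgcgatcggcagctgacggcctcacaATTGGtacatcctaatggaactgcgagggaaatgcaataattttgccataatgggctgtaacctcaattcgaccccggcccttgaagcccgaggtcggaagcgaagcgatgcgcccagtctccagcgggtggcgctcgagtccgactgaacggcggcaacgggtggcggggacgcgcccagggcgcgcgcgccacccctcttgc
Hoxb1: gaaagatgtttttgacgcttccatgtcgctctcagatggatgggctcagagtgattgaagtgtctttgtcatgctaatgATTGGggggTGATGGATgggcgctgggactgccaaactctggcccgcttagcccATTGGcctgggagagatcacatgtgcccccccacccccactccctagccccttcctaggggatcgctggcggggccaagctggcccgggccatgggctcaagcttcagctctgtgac
The Hoxb8 window held 6 matches, with a TATA box 199 and 110 bases before the start, a Cdx site at 157 and 143 bases, a CCAAT box at 57 bases and a Hox-Pbx site at 11 bases. The Hoxa5 window held 1 match, a CCAAT box at 204 bases, and the Hoxb1 window a CCAAT box at 171 and 117 bases and a Hox-Pbx site at 162 bases. GC content was 44.4% for Hoxb8, 63.6% for Hoxa5 and 59.2% for Hoxb1, and the windows held 12, 28 and 7 CpG dinucleotides. Among 32841 RefSeq promoter windows of this length the median was 52.4% GC and 6 CpG, and among the 24 windows found for 22 of the members it was 58.6% and 12.5. The shares of all windows with a match were 12.4% (TATA box), 33.9% (CCAAT box), 7.69% (Hox-Pbx site), 6.02% (E box), 4.84% (Hox core) and 10.8% (Cdx site), and of the 24 Hox windows 4, 14, 4, 4, 2 and 5 held one. A match is a run of letters and no sign that a factor was bound.

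HoxA levels were lower along most of the cluster in Mta123KO labelled 2iL. Hoxa10, a posterior gene of limb and uterus, had 0.459, 0.976, 1.59 and 3.77 CPM in Control and 0.149, 0.0906, 0.0243 and 0.0646 CPM in Mta123KO. No Mta123KO library reached the lowest Control library, although Control itself ranged widely, and the log2 fold change was -4.29 ± 0.76 (edgeR adjusted p = 0.00145). Hoxa5, which patterns the neck and lung, had 1.28 to 4.88 CPM in Control and 0.0646 to 0.68 CPM in Mta123KO (log2 fold change -3.26 ± 0.65, edgeR adjusted p = 0.00282). Hoxa7, Hoxa3, Hoxa4 and Hoxa2 gave log2 fold changes of -2.88, -2.65, -1.83 and -1.80, and of these only Hoxa4 had overlapping groups. Hoxa9, a gene of blood stem cells and limbs, had too few counts for the test, with 0.0799, 0.353, 0.89 and 1.06 CPM in Control against 0.17, 0.113, 0 and 0.0215 CPM in Mta123KO. Hoxa6 had no count in any of the 8 Mta123KO libraries. Its 19 counts in Control labelled 2iL and 13 in Control labelled 48h put it at least 5.91-fold and at least 4.55-fold lower, taking 3 counts over the group as the limit that a count of 0 allows, and this limit covers counting error only.

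The anterior HoxB genes Hoxb1 and Hoxb2 moved against Hoxb8 and Hoxb9. Hoxb1, the hindbrain gene that retinoic acid induces first in HoxB, had 1.32, 2.37, 1.51 and 2.68 CPM in Control and 1.1, 1.43, 0.461 and 0.517 CPM in Mta123KO. One Mta123KO library lay inside the Control range, and the log2 fold change of -1.14 ± 0.40 was just past the threshold (edgeR adjusted p = 0.037). Hoxb2 had 1.08, 2.49, 1.39 and 3.64 CPM in Control and 1.06, 0.929, 0.146 and 0.194 CPM in Mta123KO (log2 fold change -1.85 ± 0.63, edgeR adjusted p = 0.0349). Its highest Mta123KO library lay just under the lowest Control library. Hoxb3 was not called, with 0.459, 1.25, 0.745 and 1.84 CPM in Control and 0.934, 0.634, 0.17 and 0.56 CPM in Mta123KO (log2 fold change -0.87 ± 0.52). In HoxC, 8 of 9 members were too low to test here. Hoxc12 had no count in Control and 17 in Mta123KO, with 0.191, 0.113, 0.0243 and 0.043 CPM, at least 6.07-fold higher, and Hoxc11 had 0 and 4 counts.

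**Figure D2:**
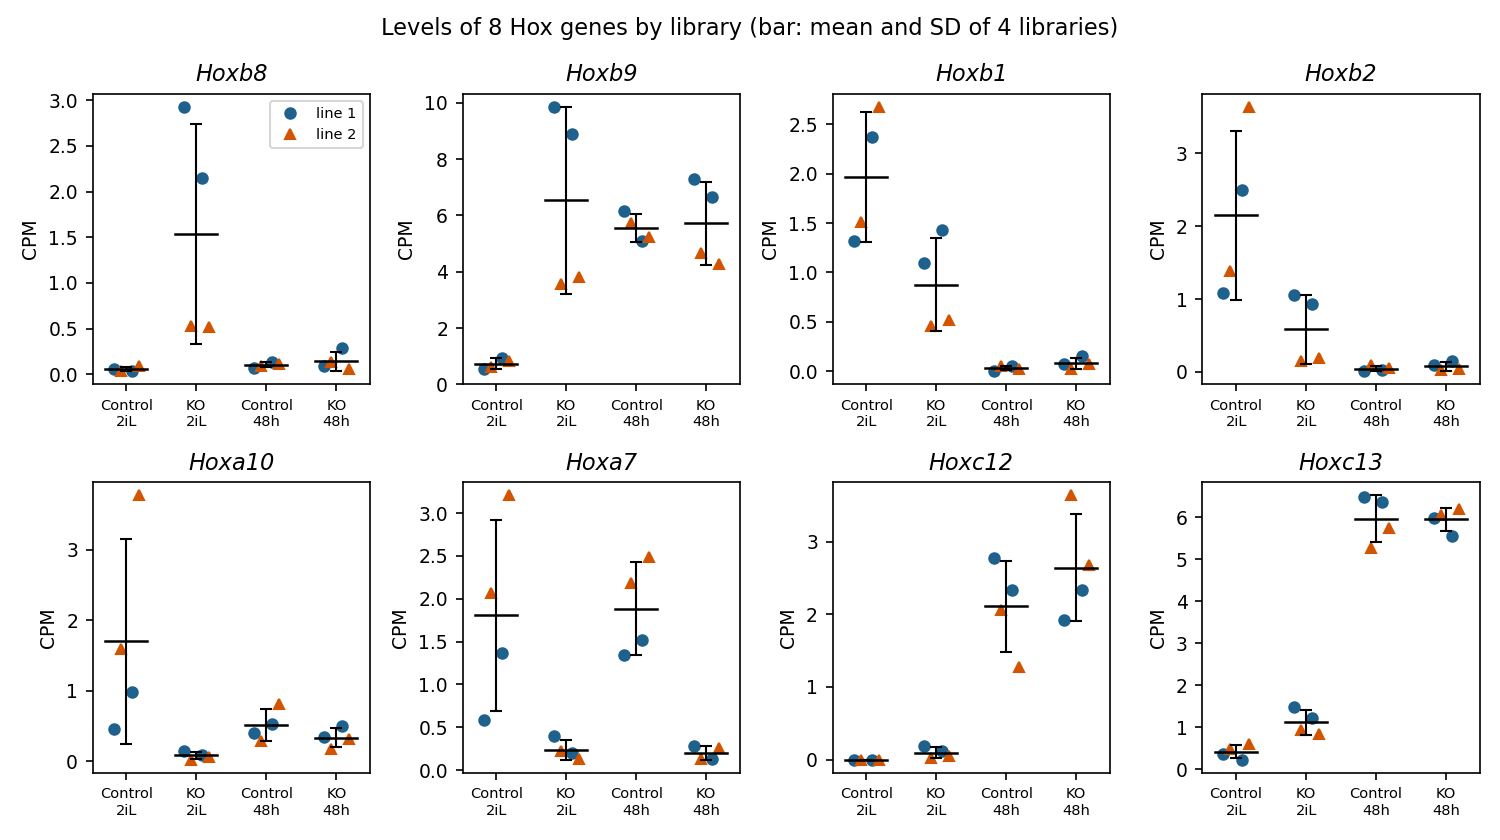
CPM of 8 Hox genes in each Control and Mta123KO (KO) library by culture label, with circles for line 1, triangles for line 2, and the mean and SD of 4 libraries as a bar. Hoxb8 and Hoxb9 in Mta123KO labelled 2iL split by line, at 2.15 to 2.93 and 0.517 to 0.534 CPM for Hoxb8, and Hoxc13 sits between 5.27 and 6.47 CPM in all 8 libraries labelled 48h.

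The same 7 HoxA genes (Hoxa2, Hoxa3, Hoxa4, Hoxa5, Hoxa7, Hoxa9 and Hoxa10) were lower in line 1 and in line 2 of Mta123KO labelled 2iL, and both lines were set against the same Control libraries. In line 1, 8 members were called higher (17.0% of 23279 genes tested) and 9 lower (10.6%), against the mean of both Control lines. The 8 were Hoxb6, Hoxb8, Hoxb9, Hoxb13, Hoxc5, Hoxc10, Hoxc13 and Hoxd8. In line 2, 4 were called higher (13.1%), Hoxb8, Hoxb9, Hoxc10 and Hoxc13, and 14 lower (8.50%), among them Hoxa9 (log2 fold change -5.02 ± 0.92) and Hoxb3 (-1.47 ± 0.53). Set against each other, line 1 exceeded line 2 in 12 members (7.54%) and line 2 exceeded line 1 in 0 (5.04%; DESeq2 also 0, and 16 members had an unadjusted p under 0.05 in either direction by edgeR). Those 12 included Hoxb8 (log2 difference 2.27 ± 0.30), Hoxb9 (1.34 ± 0.18) and Hoxb2 (2.52 ± 0.65), by edgeR adjusted p of 3.57e-05, 4.44e-05 and 0.00702. Hoxc5 was at 0.318 and 0.317 CPM in line 1 and 0.0485 and 0.0215 CPM in line 2. Libraries of 1 line are repeats of that line, so these p-values measure the spread within lines only.

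Where the libraries of a line were summed, so that lines were the replicates, 2 members were called higher in Mta123KO labelled 2iL (7.68% of 24467 genes tested), Hoxb8 (edgeR adjusted p = 0.0414) and Hoxb9 (0.0286), and 3 lower (3.91%), Hoxa3 (0.024), Hoxa7 (0.0475) and Hoxa10 (0.0421). The other 7 calls were lost. The call of Hoxb2 was also lost without replicate 1_2, 2_1 or 2_2, that of Hoxb1 without replicate 2_1 or 2_2 or with spike-in factors, and that of Hoxa4 without replicate 1_2 or 2_2. Marker genes of trophoblast moved with the knockout and with the line that was higher for Hoxb8 and Hoxb9: the summed level of all 7 markers ran from 16.8 to 20.8 CPM in Control labelled 2iL, from 471 to 512 CPM in Mta123KO line 1 and from 110 to 120 CPM in line 2, with counts for all 7 in each group. The 6 neuroectoderm markers summed to 84.2 to 110 CPM in Control and 36.6 to 46.5 CPM in Mta123KO. Smaller differences without overlap were seen for the 10 fibroblast markers (9.85 to 12.7 and 14.2 to 17.7 CPM) and the 7 ES cell markers (727 to 781 and 782 to 894 CPM). Their part in the Hox differences was not tested. In cells measured in bulk, fewer cells with a transcript and less transcript per cell cannot be told apart.

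In the libraries labelled 48h no Hox gene was called higher in Mta123KO than in Control, and fewer were called lower than in 2iL. Of 39 members 22 were tested. None was called higher (beside 14.1% of 21079 genes; DESeq2 also called 0, and 6 members had an unadjusted p under 0.05 in either direction by edgeR) and 5 were lower (5.93%), among them Hoxa7, Hoxc4, Hoxc5 and Hoxd9. The median log2 fold change over the members tested was -0.67, against 0.01 over all genes. Hoxa7 was called lower in both cultures, with 1.34, 1.52, 2.18 and 2.49 CPM in Control and 0.277, 0.132, 0.134 and 0.255 CPM in Mta123KO (log2 fold change -3.20 ± 0.33, edgeR adjusted p = 7.69e-05). The Control libraries all lay above 1 CPM and the Mta123KO libraries all below 0.3 CPM.

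Hoxc5, a mid-cluster gene of the neck and upper trunk, had 0.352, 0.447, 0.503 and 0.839 CPM in Control and 0.116, 0.264, 0.0223 and 0.073 CPM in Mta123KO (log2 fold change -2.14 ± 0.55, edgeR adjusted p = 0.00997). The groups stood apart, with line 2 of Mta123KO the lower. Hoxc4 and Hoxd9 gave log2 fold changes of -1.66 and -2.41, without overlap. Hoxd9 is a 5′ gene, and its mean level was 0.732 CPM in Control and 0.136 CPM in Mta123KO. The other 5′ genes that were higher in Control labelled 48h than 2iL (Hoxb9, Hoxb13, Hoxc10, Hoxc11, Hoxc12 and Hoxc13) were not called in Mta123KO labelled 48h. Hoxc13 had 6.47, 6.36, 5.27 and 5.73 CPM in Control and 5.98, 5.56, 6.05 and 6.19 CPM in Mta123KO (log2 fold change 0.01 ± 0.11). Hoxb9 had 6.17, 5.1, 5.75 and 5.22 CPM in Control and 7.3, 6.64, 4.67 and 4.29 CPM in Mta123KO (0.05 ± 0.19), and Hoxc12 and Hoxc10 gave 0.33 ± 0.27 and -0.52 ± 0.39. Hoxb8 was too low to test, at 0.0705 to 0.131 CPM in Control and 0.0547 to 0.286 CPM in Mta123KO.

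With libraries of a line summed, 0 members were higher (9.07% of 23899 genes) and 2 lower (3.44%), Hoxa7 (edgeR adjusted p = 0.017) and Hoxc4 (0.0253). The call of Hoxc5 was lost without replicate 2_2. Line 1 alone gave 0 members higher (17.2% of 22694 genes; DESeq2 also 0, with 8 members at an unadjusted p under 0.05) and 5 lower (8.25%). Line 2 alone gave 0 higher (14.3%; DESeq2 also 0, with 14 members at an unadjusted p under 0.05) and 10 lower (6.61%). Between the lines, 4 members were higher in line 1 (6.13%), Hoxb4, Hoxb13, Hoxd8 and Hoxd9, and 0 in line 2 (3.97%; DESeq2 also 0, with 8 members at an unadjusted p under 0.05). Trophoblast markers summed to 72.5 to 93.0 CPM in Control labelled 48h, 811 to 858 CPM in Mta123KO line 1 and 185 to 199 CPM in line 2. ES cell markers also moved with genotype and line, at 4190 to 4550 CPM in Control, 2260 to 2350 CPM in line 1 and 3260 to 3280 CPM in line 2. The fibroblast sum (5.73 to 6.2 CPM in Control, with no count for Dcn, and 7.83 to 11.8 CPM in Mta123KO) and that of the 6 primitive endoderm markers (3.49 to 4.88 and 4.96 to 6.7 CPM) did not overlap between the genotypes either. The part of these markers was not tested.

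**Figure D3:**
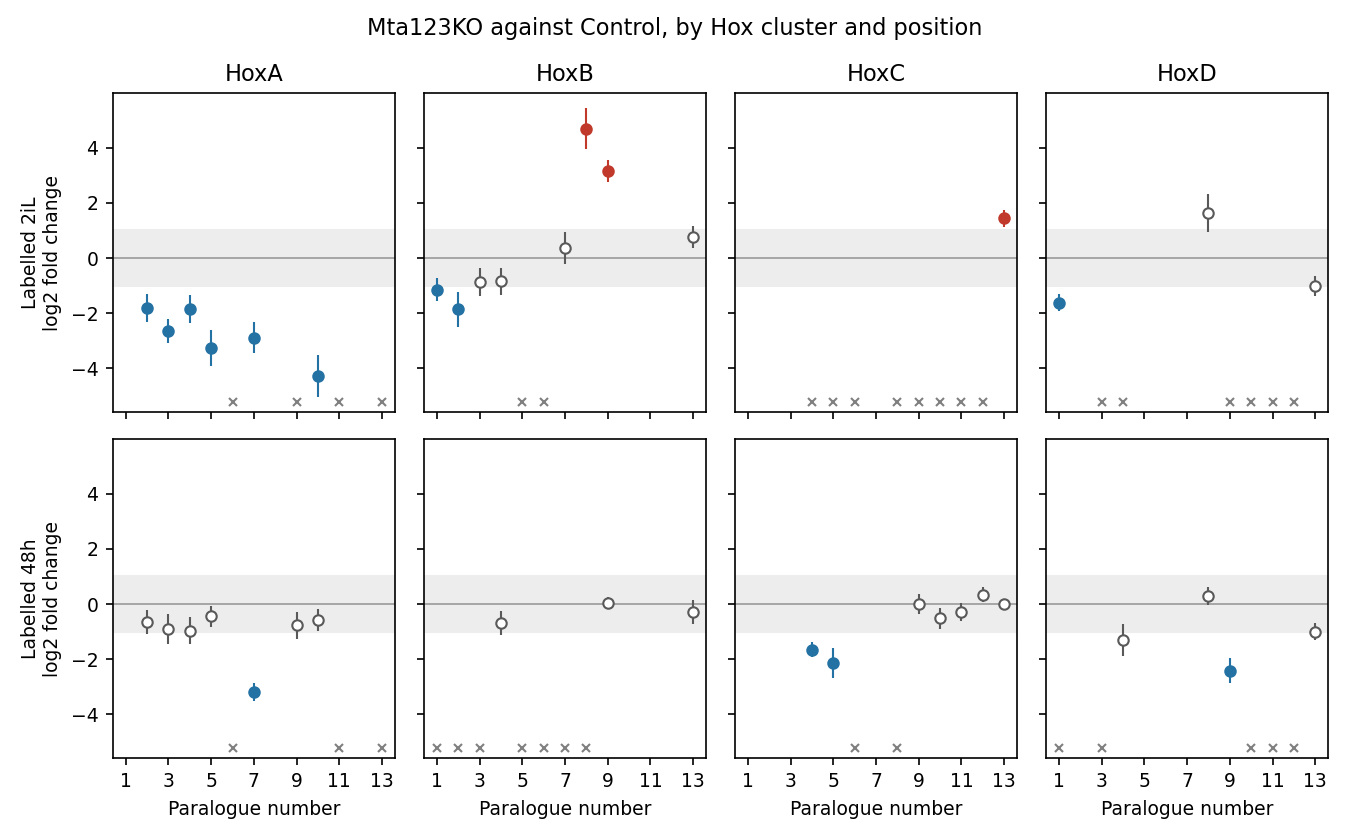
Log2 fold change of Mta123KO against Control (y axis, bars ± SE) by paralogue number (x axis) in each Hox cluster, for libraries labelled 2iL (top) and 48h (bottom), with blue for lower, red for higher, open circles for tested but not called, and grey crosses for too few counts to test. In 2iL the HoxA genes lie below 0 down to -4.29 for Hoxa10 while Hoxb8 reaches 4.69, and in 48h the lowest is Hoxa7 at -3.20.

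In Control the called members of HoxA were all lower and those of HoxC all higher in the libraries labelled 48h, while HoxB and HoxD held both, the lower ones at the 3′ end. Position itself was not tested. Of 39 members 25 were tested, 11 were higher in the libraries labelled 48h (10.4% of 21240 genes) and 8 lower (13.2%). Higher were all 6 HoxC members tested (Hoxc4, Hoxc5, Hoxc10, Hoxc11, Hoxc12 and Hoxc13), Hoxb9 and Hoxb13, and Hoxd4, Hoxd8 and Hoxd9. Lower were Hoxb1, Hoxb2 and Hoxb3, Hoxa2, Hoxa3, Hoxa5 and Hoxa10, and Hoxd1. Among the HoxB members tested the change ran from the largest fall at Hoxb1 to a rise at Hoxb9 and Hoxb13, with Hoxb4 between them not called (-0.75 ± 0.32). Hoxb5 to Hoxb8, which lie between Hoxb4 and Hoxb9, were too low to test and did not follow that run. Mean levels in 2iL and 48h were 0.165 and 0 CPM for Hoxb5 and 0.0745 and 0.0117 CPM for Hoxb6. They were 0.281 and 0.0695 CPM for Hoxb7 and 0.0579 and 0.104 CPM for Hoxb8.

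The 5′ end of HoxC went from no count, or few, to clear levels. Hoxc12 had no count in any Control library labelled 2iL and 2.77, 2.34, 2.06 and 1.28 CPM in 48h, 387 counts in all, at least 138-fold higher (edgeR adjusted p = 5.12e-06). Hoxc11 likewise had no count in 2iL and 0.352, 0.342, 0.239 and 0.35 CPM in 48h, at least 20.6-fold higher (edgeR adjusted p = 5.96e-05). Hoxc13, next to them, was detected in 2iL but rose from 0.229 to 0.598 CPM to 5.27 to 6.47 CPM, a log2 fold change of 3.85 ± 0.23 (edgeR adjusted p = 1.14e-07). Hoxc10 went from 0, 0, 0.0621 and 0.0222 CPM to 0.229, 0.552, 0.455 and 0.629 CPM (4.30 ± 0.66) and Hoxc5 from 0, 0.0415, 0.0414 and 0.0222 CPM to 0.352, 0.447, 0.503 and 0.839 CPM (4.23 ± 0.54). Hoxc6, between Hoxc5 and Hoxc8, was too low to test, at 0.02, 0.0415, 0.0207 and 0.244 CPM in 2iL and 0.0529, 0.0788, 0 and 0.163 CPM in 48h. Hoxb9 rose from 0.559 to 0.935 CPM to 5.1 to 6.17 CPM, without overlap (2.94 ± 0.18).

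The 3′ end of HoxB nearly vanished. Hoxb1 fell from 1.32 to 2.68 CPM to 0, 0.0525, 0.0479 and 0.0233 CPM (log2 fold change -5.99 ± 0.49, edgeR adjusted p = 1.61e-06), and in 48h only 5 counts were left over 4 libraries. Hoxb2, a gene of the same hindbrain segments, fell to 0.0176, 0.0263, 0.0958 and 0.0466 CPM (-5.48 ± 0.57). Hoxb3 fell to 0, 0.105, 0.0479 and 0.117 CPM (-4.03 ± 0.65). For each of these 3 genes the highest library labelled 48h lay below the lowest labelled 2iL. Hoxb5 had 31 counts in 2iL and none in 48h, at least 9.68-fold lower, and was too low to test. Hoxa5 fell from 1.28 to 4.88 CPM to 0.229 to 0.443 CPM (-3.37 ± 0.41), whereas Hoxa7 (0.07 ± 0.41) and Hoxd13 (-0.13 ± 0.27) passed neither threshold. With libraries of a line summed the counts were 11 higher (10.3% of 24080 genes) and 7 lower (13.1%), and 16 of the 19 calls held in every alternative run, those of Hoxa10 (without replicate 2_1), Hoxa2 (without replicate 1_2) and Hoxd4 (without replicate 1_1, 1_2 or 2_2) being lost there and with the summed libraries. Summed ES cell markers moved with the label too, from 727 to 781 CPM in 2iL to 4190 to 4550 CPM in 48h over 7 genes, all with counts. The neuroectoderm sum went from 84.2 to 110 CPM down to 29.3 to 33.2 CPM, although the culture labelled 48h is one that directs cells towards neuroectoderm. Trophoblast markers went from 16.8 to 20.8 CPM to 72.5 to 93.0 CPM, and those of posterior mesoderm and axial progenitors, cells that use Hox genes in the embryo, from 5.88 to 10.1 CPM to 17.2 to 22.0 CPM. Fibroblast markers went from 9.85 to 12.7 CPM to 5.73 to 6.2 CPM. None of these sums overlapped between the labels, and their part was not tested.

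In Mta123KO fewer members were called between the culture labels. Of 39 members 16 were tested, 3 were higher in 48h (4.84% of 21505 genes), Hoxc12, Hoxc13 and Hoxb13, and 2 lower (4.62%), Hoxb1 and Hoxb8. Hoxc12 went from 0.0243 to 0.191 CPM to 1.92, 2.33, 3.64 and 2.68 CPM (log2 fold change 4.76 ± 0.48, edgeR adjusted p = 0.000391). Hoxc13 went from 0.839 to 1.49 CPM to 5.56 to 6.19 CPM (2.40 ± 0.20), and Hoxb1 from 0.461 to 1.43 CPM to 0.0223 to 0.154 CPM (-3.42 ± 0.57). These moved as in Control. Hoxb8 fell from 0.517 to 2.93 CPM to 0.0547 to 0.286 CPM (-3.44 ± 0.75, edgeR adjusted p = 0.0124), and Hoxb9, which rose in Control, stood at 3.57 to 9.87 CPM in 2iL and 4.29 to 7.3 CPM in 48h (-0.20 ± 0.37). With libraries of a line summed no gene of any kind was called here, and Hoxb13 lost its call without replicate 1_1 or 1_2 and Hoxb8 without 1_1. Marker sums moved with the label here as well, from 782 to 894 CPM to 2260 to 3280 CPM for ES cells and from 4.82 to 6.34 CPM to 19.4 to 22.4 CPM for posterior mesoderm and axial progenitors. Within each line trophoblast markers went from 471 and 512 CPM to 811 and 858 CPM in line 1 and from 110 and 120 CPM to 185 and 199 CPM in line 2. Sums for fibroblasts (14.2 to 17.7 and 7.83 to 11.8 CPM) and primitive endoderm (6.74 to 11.3 and 4.96 to 6.7 CPM) were lower in 48h without overlap. The part of these markers was not tested.

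**Figure D4:**
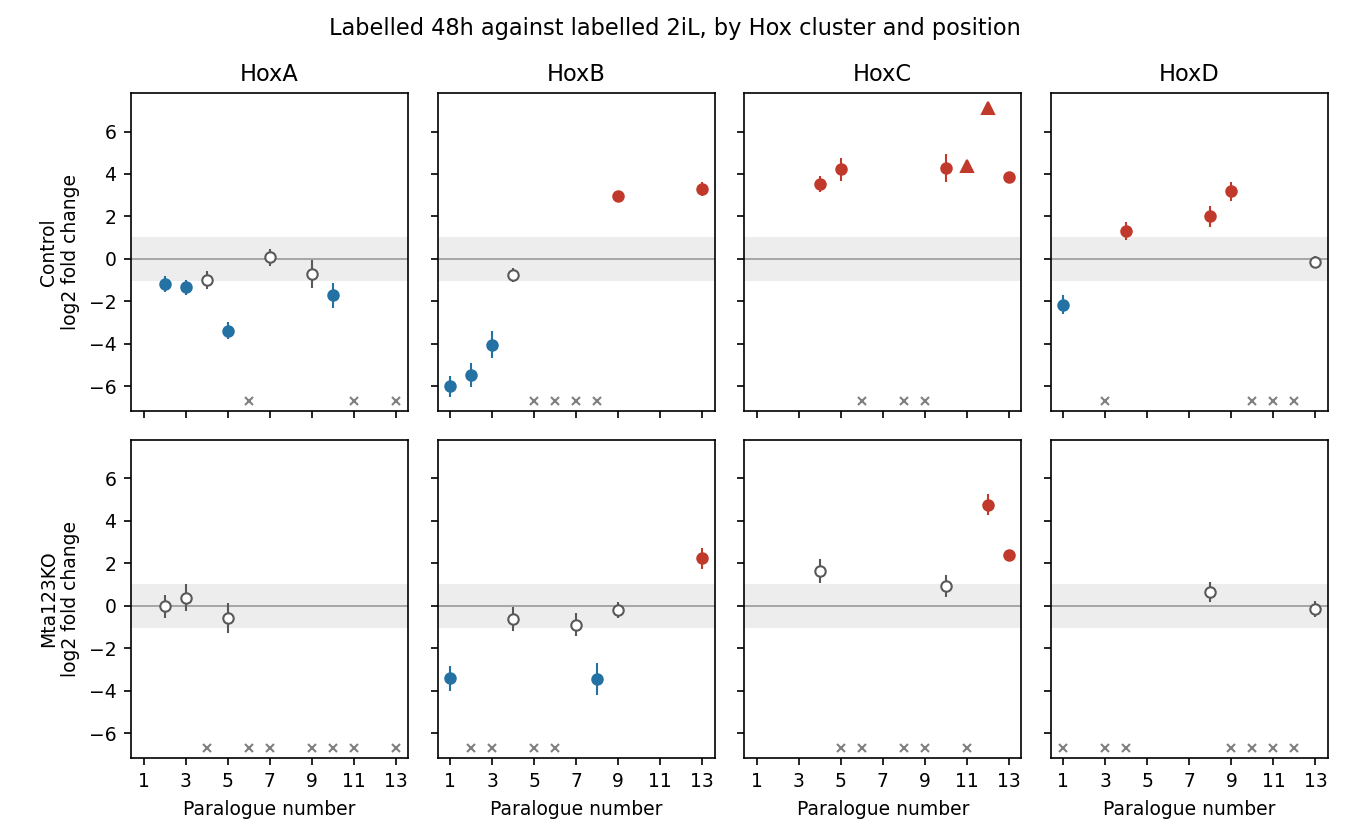
Log2 fold change of libraries labelled 48h against those labelled 2iL (y axis, bars ± SE) by paralogue number (x axis) in each Hox cluster, for Control (top) and Mta123KO (bottom), with triangles at the lower bound for Hoxc11 and Hoxc12, which had no count in Control labelled 2iL, and grey crosses for too few counts to test. HoxC points lie above 0 and Hoxb1 to Hoxb3 lie at -5.99 to -4.03 in Control.

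Whether the knockout effect differed between the culture labels was tested as an interaction over the 16 libraries. Of 28 members tested, 3 had a more positive effect in 48h (7.66% of 22973 genes), Hoxa5 (2.82 ± 0.83), Hoxa10 (3.71 ± 0.88) and Hoxd1 (2.08 ± 0.65), all of them lower in Mta123KO in 2iL. A more negative effect was found for 6 (5.37%), Hoxb9 (-3.11 ± 0.44, edgeR adjusted p = 0.000129), Hoxc13 (-1.43 ± 0.31), Hoxb8 (-4.22 ± 1.01), Hoxc5, Hoxc10 and Hoxc12. The value of Hoxc12 depends on the prior count, since Control labelled 2iL had none. With libraries of a line summed 0 members were called in either direction, beside 1.5% of 25816 genes higher and 1.08% lower. Without replicate 1_1 the calls of Hoxa5, Hoxc5, Hoxc10, Hoxc12 and Hoxc13 were also lost, without 1_2 those of Hoxc10, Hoxc12 and Hoxd1, without 2_1 those of Hoxa5 and Hoxd1, and without 2_2 those of Hoxc10 and Hoxd1.

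Loss of 1 MTA protein was examined next, in cells labelled 2i+LIF. Deletion of Mta1 gave no call among the 23 members tested, higher (0% of 14561 genes) or lower (0%), with 0 members and 50 genes at an unadjusted p under 0.05 by edgeR and 0 calls by DESeq2. Mta1 itself, at 51.1% of the parent, was not called either (log2 fold change -0.97). The lack of calls therefore does not show that Hox levels were unchanged. Hoxc13 had 15.6, 14.2 and 11.3 CPM in Mta1_flox and 16.8, 14.5 and 12.2 CPM in Mta1_del (log2 fold change 0.07 ± 0.21), and Hoxb9 had 10.4, 8.31 and 8.13 CPM and 11.3, 9.08 and 6.34 CPM (-0.02 ± 0.27). Both groups overlapped for these abundant members.

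Mta2_KO gave the clearest single-mutant difference. Of 39 members 31 were tested, 0 were called higher (5.31% of 15602 genes; DESeq2 also 0, and 25 members had an unadjusted p under 0.05 in either direction by edgeR) and 21 lower (6.04%). The lower members were 7 in HoxA, 4 in HoxB, 7 in HoxC and 3 in HoxD. The median log2 fold change was -1.46 over the members tested and 0.00 over all genes. Hoxa9 had 15.0, 11.4 and 14 CPM in Mta2_WT and 0.473, 0.438 and 0.671 CPM in Mta2_KO, the lowest ratio of all members tested (log2 fold change -4.69 ± 0.18, edgeR adjusted p = 7.71e-08). The microRNA gene Mir196b lies within an exon of Hoxa9 on the same strand, so reads there can belong to either.

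Hoxc6 (0.863, 1.35 and 1.02 CPM against 0.0788, 0.0584 and 0.134 CPM) and Hoxc5 (1.47, 2.03 and 1.85 CPM against 0.289, 0.117 and 0.101 CPM) stood at log2 fold changes of -3.57 ± 0.42 and -3.33 ± 0.37. Hoxa10 had 7.94, 6.76 and 7.71 CPM in Mta2_WT and 0.867, 1.08 and 0.872 CPM in Mta2_KO (-2.99 ± 0.14). In each of these genes the groups lay far apart beside the spread within them. Hoxa7 (-3.40 ± 0.10) went from 29.5 ± 2.05 to 2.82 ± 0.326 CPM, and Hoxc10 (-2.83 ± 0.44), Hoxb1 (-1.92 ± 0.32), Hoxc12 (-1.81 ± 0.33), Hoxb2 (-1.79 ± 0.33) and Hoxb3 (-1.53 ± 0.56) were also lower. Hoxc13, with 8.66, 8.05 and 8.16 CPM against 5.15, 4.35 and 3.82 CPM, did not pass the fold threshold (-0.90 ± 0.12, edgeR adjusted p = 0.000264). Hoxb9 went the other way without passing the fold threshold, from 6.33, 5.4 and 6.31 CPM to 8.27, 6.84 and 7.98 CPM (0.35 ± 0.11, edgeR adjusted p = 0.0303).

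Of the 21 calls 14 held in every alternative run. Those of Hoxa6 and Hoxd8 were lost without replicate 1, that of Hoxc9 without replicate 3, and those of Hoxb3 and Hoxb4 without replicate 1 or 2. Markers of posterior mesoderm and axial progenitors moved with the genotype: 8 of 8 had counts in both groups, and their sum ran from 42.3 to 45.0 CPM in Mta2_WT and from 9.5 to 9.74 CPM in Mta2_KO. Summed olfactory receptor genes, which these cells do not use, ran from 128 to 193 CPM in Mta2_WT and from 82.8 to 125 CPM in Mta2_KO. The 7 trophoblast markers summed to 80.3 to 88.8 CPM in Mta2_WT and 144 to 152 CPM in Mta2_KO. Neuroectoderm markers were higher in Mta2_KO (31.9 to 41.5 and 68.1 to 77.1 CPM), and ES cell markers (5610 to 5890 and 4250 to 4470 CPM) and primitive endoderm markers (7.68 to 8.38 and 5.35 to 7.65 CPM) were lower, all without overlap. Their part in the Hox difference was not tested. Mta2_KO was 1 line, so the line and the genotype cannot be told apart.

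Deletion of Mta3 gave few calls, all of them lower, though members tested tended to be lower as a whole. The median log2 fold change was -1.21 over the members tested and -0.01 over all genes. Of 39 members 22 were tested, 0 were called higher (0.812% of 15522 genes; DESeq2 also 0, and 13 members had an unadjusted p under 0.05 in either direction by edgeR) and 5 lower (5.25%): Hoxa9, Hoxa10, Hoxc5, Hoxd1 and Hoxd13. Hoxc5 had 0.611, 1.36 and 0.468 CPM in Mta3_flox and 0, 0.0776 and 0.131 CPM in Mta3_del (log2 fold change -3.60 ± 0.84, edgeR adjusted p = 0.0284). Hoxa9 had 0.95, 1.6 and 0.429 CPM against 0.11, 0.155 and 0.218 CPM (-2.68 ± 0.64), and Hoxa10 0.814, 2.76 and 1.29 CPM against 0.184, 0.582 and 0.218 CPM (-2.36 ± 0.63). The groups did not overlap in the 5 called genes, but Mta3_flox varied widely in each of these 3. No member was called without replicate 1 or without replicate 3, runs in which nearly all calls of other genes were lost too. Without replicate 1, 0 genes were higher and 2 lower of 15595 tested, and without replicate 3, 1 and 1 of 16132. Without replicate 2 the calls of Hoxa9, Hoxc5 and Hoxd13 were lost.

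Libraries of Mta3_flox differed among themselves in genes of other cells. The 10 fibroblast markers summed to 20.1, 30.8 and 69.6 CPM there and to 9.19 to 12.2 CPM in Mta3_del, with counts for all 10 in both groups. Olfactory receptor genes summed to 171, 148 and 40.5 CPM in Mta3_flox and 46.6, 84.8 and 33.7 CPM in Mta3_del. Between the groups the sums of ES cell markers (3580 to 4390 CPM in Mta3_flox and 4490 to 5290 CPM in Mta3_del) and primitive endoderm markers (12 to 14.1 and 7.5 to 10.3 CPM) did not overlap. Their part in the Hox differences was not tested.

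**Figure D5:**
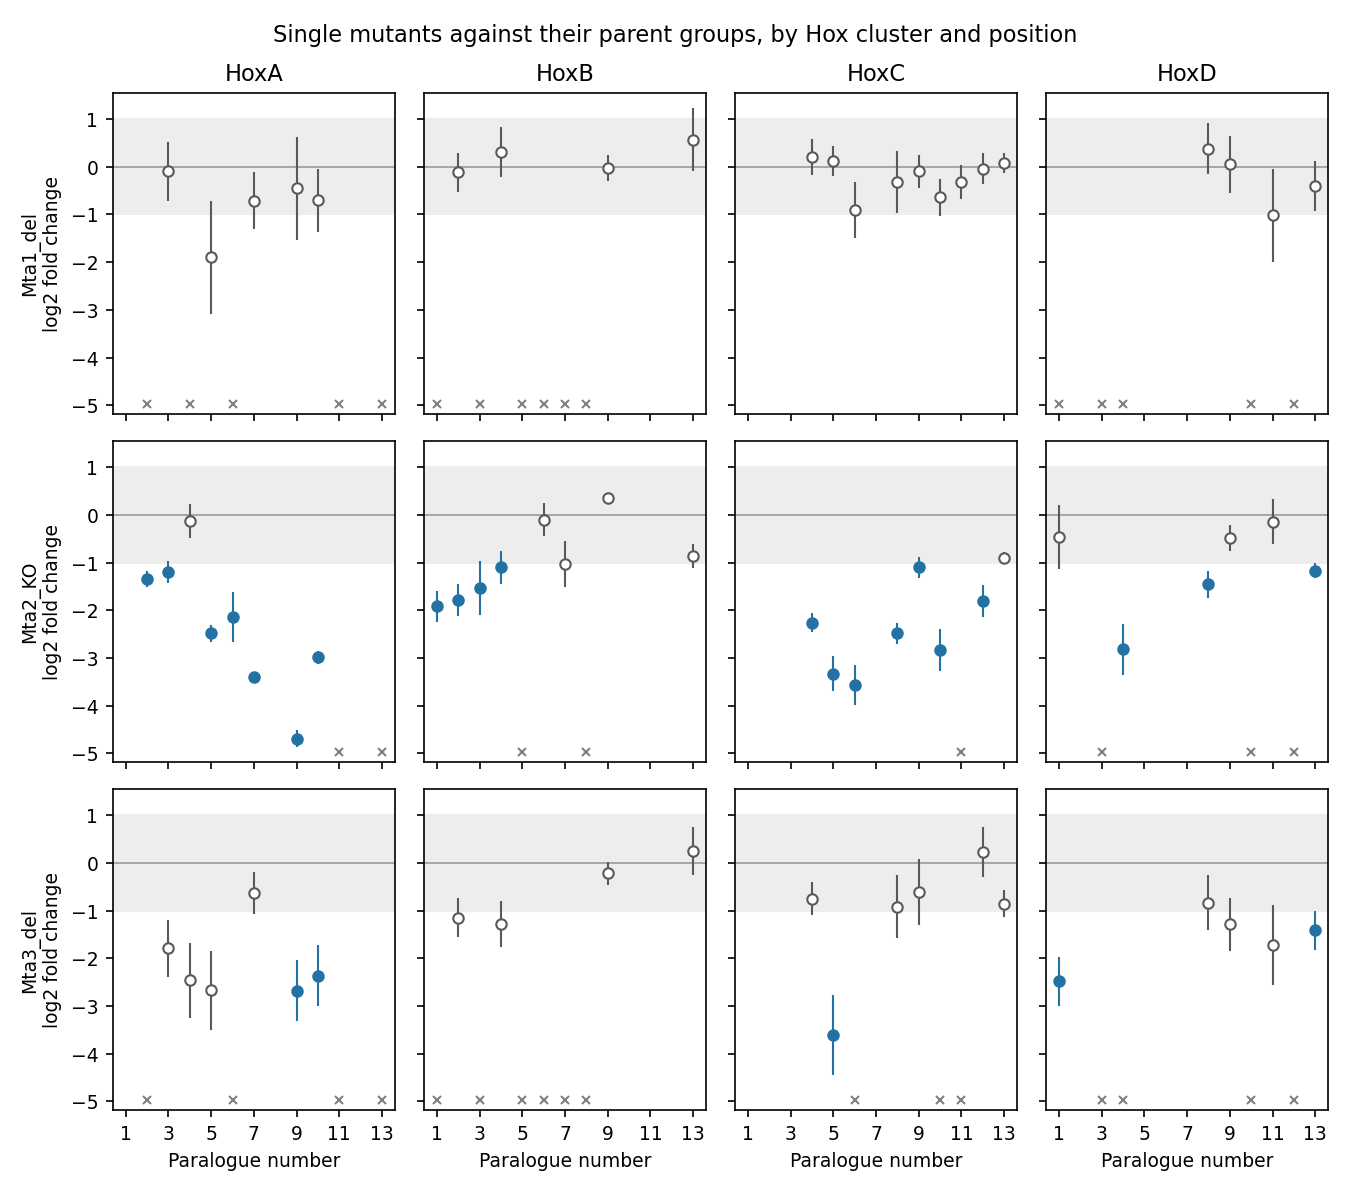
Log2 fold change of each single mutant against its parent or wild-type group (y axis, bars ± SE) by paralogue number (x axis) in each Hox cluster, with blue for called lower, open circles for tested but not called and grey crosses for too few counts to test. Mta2_KO holds 21 blue points, down to -4.69 for Hoxa9, Mta3_del holds 5 and Mta1_del none.

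Of the 31 members tested in Mta2_KO 21 were lower (67.7%), and shares of other lists are to be read against that. Set side by side, 7 of the 9 members lower in Mta123KO labelled 2iL (77.8%) were among the 21 lower in Mta2_KO (33.3% of those): Hoxa2, Hoxa3, Hoxa5, Hoxa7, Hoxa10, Hoxb1 and Hoxb2. Of the 5 lower in Mta123KO labelled 48h, 3 (60.0%) were lower in Mta2_KO (14.3% of those), and of the 5 lower in Mta3_del, 4 (80%) were (19.0% of those). Whether these shares differ from that of all members tested was not tested. Between the cultures the 2 lists of lower members in Mta123KO shared 1 gene, Hoxa7. Across the 8 main comparisons 9 members were never called, of which Hoxa11, Hoxa13, Hoxb5, Hoxd3, Hoxd10 and Hoxd12 were never abundant enough to test, and Hoxb6, Hoxb7 and Hoxd11 were tested at least once. The exon sequence of Hoxd4 overlaps that of Hoxd3 by 388 bases, that of Hoxc5 overlaps that of Hoxc10 by 166 bases, and Hoxa2, Hoxa3, Hoxd3 and Hoxd4 share exons with annotated read-through genes, so their counts are uncertain to that extent.

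Hox proteins bind DNA with TALE cofactors (Pbx, Meis and Pknox proteins). Of the 9 TALE genes tested 2 were higher and 3 lower in Mta123KO labelled 2iL, beside 13.2% and 7.43% of all genes tested. These shares were 14.1% and 5.93% in 48h, and 5.31% and 6.04% in Mta2_KO. Whether this list or those below differed from these shares was not tested. Meis3 rose from 0.59 ± 0.119 to 7.68 ± 1.12 CPM (log2 fold change 3.72 ± 0.19), while Pbx3 fell by 1.66 and Meis2 by 2.16 on the log2 scale. In 48h Meis3 (4.19 ± 0.26) and Meis1 (1.81 ± 0.33) were higher and none lower. In Mta2_KO Meis3 was higher (1.82 ± 0.24) and 3 were lower, Meis2 (-1.78 ± 0.06) and Pknox2 (-1.26 ± 0.08) among them. The median of the 9 lay between -0.16 and -0.05 in these 3 comparisons and between the cultures in Control.

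Among the 5 Cdx and hindbrain activators of Hox genes, Cdx1 (3.72 ± 0.66) and Cdx2 (2.06 ± 0.77) were higher and Cdx4 (-1.78 ± 0.41) lower in Mta123KO labelled 2iL. Cdx1 went from 0.79 ± 0.233 CPM in Control labelled 2iL to 67.8 ± 15.5 CPM in Control labelled 48h (6.44 ± 0.22), and Cdx2 from 0.494 ± 0.225 to 1.04 ± 0.111 CPM. In Mta2_KO both were lower, Cdx1 from 205 ± 5.87 to 44.8 ± 2.14 CPM (-2.20 ± 0.05) and Cdx2 from 15.6 ± 0.717 to 1.57 ± 0.345 CPM (-3.30 ± 0.14). Egr2, a hindbrain factor upstream of Hoxa2 and Hoxb2, was lower in Control labelled 48h than 2iL (-1.69 ± 0.48). Of 5 Evx and ParaHox genes only Gsx1 had enough counts in the comparisons of Mta123KO with Control, and it fell by 1.93 on the log2 scale in 2iL. It was called lower in Control labelled 48h, at 0.00598 ± 0.012 CPM against 1.34 ± 0.405 CPM in 2iL.

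Of 13 genes of the retinoic acid pathway tested, 4 were higher and 2 lower in Mta123KO labelled 2iL, beside 13.2% and 7.43% of all genes tested. The retinoic acid receptor Rarg fell from 208 ± 21.5 to 47.0 ± 19.1 CPM, and the degrading enzyme Cyp26b1 rose from 0.321 ± 0.0989 to 1.45 ± 0.406 CPM. In 48h Crabp2, which carries retinoic acid to its receptors, was higher (3.58 ± 0.27) and the synthetic enzyme Aldh1a2 lower (-1.90 ± 0.15). Of 25 Polycomb genes 3 were higher and 2 lower in each culture. These counts lie near the shares of all genes tested, 13.2% and 7.43% in 2iL and 14.1% and 5.93% in 48h. Phf19, an accessory subunit of Polycomb repressive complex 2, rose in Mta123KO labelled 2iL (2.81 ± 0.12) and 48h (2.75 ± 0.33) and in Mta2_KO (4.79 ± 0.15, from 0.941 ± 0.268 to 26.5 ± 1.17 CPM). Phc1, of Polycomb repressive complex 1, fell by 1.87 and by 1.29 on the log2 scale in Mta123KO. Of 12 trithorax and demethylase genes 1, Kmt2a, was higher in 2iL (1.05 ± 0.18), beside 13.2% of all genes tested. In Mta1_del and, for the TALE, Cdx, Polycomb and trithorax lists, in Mta3_del 0 genes were called. Over all genes tested the shares higher and lower were 0% and 0% in Mta1_del and 0.812% and 5.25% in Mta3_del.

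Annotated antisense transcripts moved in the same libraries as members they overlap. Hoxaas3 overlaps exons of Hoxa3 and, by 586 bases, of Hoxa7 on the opposite strand. It was lower in Mta123KO labelled 2iL (log2 fold change -2.77, edgeR adjusted p = 0.00252) and 48h (-2.01, edgeR adjusted p = 0.00165). Hoxb3os, which overlaps exons of Hoxb2 and Hoxb3 on the opposite strand, ran from 1.44 to 4.81 CPM in Control labelled 2iL and from 0 to 0.12 CPM in Control labelled 48h (log2 fold change -5.33, edgeR adjusted p = 2.05e-05). The strand setting of the count is not given in the sources used here. Reads of Hoxa3, Hoxa7, Hoxb2 and Hoxb3 and of their antisense partners therefore cannot be told apart. Of 46 such genes inside the clusters, mostly non-coding, 12 were tested in 2iL. In Mta123KO 1 was higher, beside 13.2% of all genes tested, and 8 lower, beside 7.43%. Several of the 8 lie within the bounds of another of them on the same strand, so they are not separate measures.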

How the data were processed

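RNA-seq read counts per gene were used as deposited. Per the methods and labels, the authors trimmed reads (Trim Galore), aligned them to GRCm38/mm10 (TopHat2) and counted them per Ensembl gene (featureCounts) to make these count tables. One of 2 directional kits was used per library; which one, and the strand and multi-mapping settings, are not given in the sources used here. The members and gene lists were chosen with earlier results of these data known.

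Symbols were matched by Ensembl ID to GENCODE vM21 (48349 of 48709 and 21852 of 22018 IDs). CPM used library totals without the 92 ERCC spike-ins. Tests were edgeR 4.0.16 quasi-likelihood fits (R 4.3.3, TMM factors, filterByExpr) on the groups compared, with Benjamini-Hochberg adjustment over all genes tested. SE was the log2 fold change over the root of F. The fit was tested on simulated data. Alternatives were DESeq2 1.42.0, RLE or ERCC factors, no filter, a replicate block, one fit per set, summed libraries of a line, the adjusted p alone, and leaving out replicates. Members named with per-library values were the 12 with the largest called change and the 3 highest in Control, 1 gene counting under both; some items, and the results that need them, are not reported here, but counts cover all 39 members. Other genes came from lists fixed with the design, those called, at most 4 per list and comparison.

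Same-numbered libraries deviated together between the culture labels, where a number names the same line and library (r = 0.331 to 0.389 in Control, 0.641 to 0.683 in Mta123KO), and in Mta1_del with Mta1_flox (0.544 to 0.71). No 2 libraries of a group agreed within sampling noise.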

Additional observations from a re-analysis of the deposited data

Results flagged for a closer look

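Among 50 groups of 4 libraries looked at, 2 held a library whose gap to its nearest neighbour was large beside the range of the group, where chance gives about 1 in 20. They were Hoxc11 in Control labelled 48h, replicate 2_1 (0.239 CPM) and Hoxc6 in Control labelled 2iL, replicate 2_2 (0.244 CPM).

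The knockout effect differed between the culture labels for 9 members by the interaction test (edgeR, log2 scale, 48h minus 2iL). It was more positive in 48h for Hoxa5 (2.82, adjusted p = 0.023), Hoxa10 (3.71, 0.00647) and Hoxd1 (2.08, 0.0314). It was more negative for Hoxb8 (-4.22, 0.00663), Hoxb9 (-3.11, 0.000129), Hoxc5 (-4.80, 0.00605), Hoxc10 (-3.37, 0.0172), Hoxc12 (-4.84, 0.0128) and Hoxc13 (-1.43, 0.00353).

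In Mta123KO labelled 2iL line 1 exceeded line 2 by edgeR with log2 differences of 2.79 for Hoxa5, 3.36 for Hoxa9, 1.35 for Hoxb1, 2.52 for Hoxb2, 1.85 for Hoxb6, 1.79 for Hoxb7, 2.27 for Hoxb8, 1.34 for Hoxb9, 3.11 for Hoxc5, 1.89 for Hoxc10 and 1.67 for Hoxd8. In 48h it did so in 4, with 1.60 for Hoxb4, 1.47 for Hoxb13, 1.01 for Hoxd8 and 1.80 for Hoxd9.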

How the results depend on the processing

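Of 772 values of single members under the alternatives, 682 kept their direction and their side of the thresholds, 90 kept the direction but lost the call, and 0 reversed. In 2iL 7 members were called higher with DESeq2, with no filter and in one fit of all libraries, and 3 lower with libraries of a line summed, which left 2 lower in 48h. Between the culture labels in Mta123KO, DESeq2 gave 6 higher and 5 lower, no filter 5 and 5, one fit 6 and 4, and summed lines 0 and 0. The interaction gave 0 and 0 with summed lines, beside 1.5% and 1.08% of all genes tested. By the adjusted p alone 1 member was higher in Mta2_KO, 2 in line 1 and 1 in line 2 in 48h. One fit gave 10 lower in Mta3_del. Line 1 exceeded line 2 in 5 members in 2iL with DESeq2, and in 48h in 1 with DESeq2 and 2 with spike-in factors. Spike-in factors moved the median of all genes by -0.18 (48h, knockout), 0.18 (culture, Control), -0.22 (interaction) and 0.20 (lines, 2iL). The cause of these shifts was not tested.

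Leaving out 1 replicate number gave 3 to 4 members higher and 6 to 12 lower in 2iL, 4 to 7 lower in 48h, 10 to 11 higher and 7 to 9 lower between the culture labels in Control, 2 to 4 higher and 1 to 4 lower in Mta123KO, 1 to 2 and 2 to 7 for the interaction, 17 to 22 lower in Mta2_KO and 0 to 5 lower in Mta3_del. For line 1 in 2iL it gave 7 to 12 higher and 4 to 9 lower, for line 2 2 to 3 higher and 13 to 15 lower, and for line 1 over line 2 5 to 11. In 48h it gave 4 lower for line 1, 6 to 11 lower for line 2, and 1 to 3 for line 1 over line 2; where it left 1 library in a line, that library was assumed to vary like the other groups.

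Blocking by replicate number gave counts higher and lower of 3 and 8 in 2iL, 0 and 5 in 48h, 11 and 8 between the culture labels in Control, 4 and 2 in Mta123KO, 4 and 6 for the interaction, 0 and 0 in Mta1_del, 0 and 20 in Mta2_KO and 0 and 5 in Mta3_del. The block ended the calls of Hoxb2 in 2iL and Hoxb3 in Mta2_KO. Same-numbered libraries did not deviate together in every pair in 2iL (r = -0.286 to -0.0207), 48h (-0.162 to 0.0339), Mta2_KO (-0.199 to 0.369) or Mta3_del (-0.052 to 0.36), where the numbers name the library only. Depth limits members under about 0.1 CPM, which rest on few counts in each library.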
